A study of Mus musculus with 16 samples.

Results

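The effect of 16 weeks of a high-fat diet (HFD) on the liver transcriptome of mice that were eating freely was measured by comparing 4 HFD fed livers with 4 control diet (CD) fed livers, which are 8 of the 16 RNA-seq libraries of the study. The 8 libraries were chosen by their labels alone. The remaining libraries come from mice on the same diets that were fasted for 16 h before collection (4 on CD and 4 on HFD). The animals were wild-type males of an inbred laboratory strain, written C56B6/J in the labels and C57BL6/J in the methods. They were 8 weeks old when the diets began. Fat supplied 60% of the calories of the HFD, a diet that produces obesity and fat storage in the liver. The labels of the 4 groups name no transgene, deletion or drug. Each library was made from polyadenylated RNA of frozen liver. The sources used here do not give the time of day at which fed mice were killed or how long before that they had last eaten.

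The liver makes fatty acids from acetyl-CoA when carbohydrate is plentiful, a route called de novo lipogenesis, and its enzymes are induced by the transcription factor SREBP1c under insulin and by ChREBP under glucose. Cholesterol synthesis is controlled by the related factor SREBP2, which is held in the endoplasmic reticulum by Insig proteins when sterols are abundant. Fatty acids that reach the liver from the diet or from adipose tissue are either burnt in mitochondria and peroxisomes, a programme under the nuclear receptor PPAR alpha, or esterified and stored in lipid droplets coated by perilipins.

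Levels are given as CPM, the gene's count relative to the library's total after trimmed-mean scaling of library sizes. They compare a gene between libraries, not genes of different length with each other. Changes are log2 fold changes of HFD fed over CD fed livers from edgeR. Its quasi-likelihood test gave p-values, adjusted by Benjamini-Hochberg over all 15075 genes tested. The SE given with a change is its absolute value divided by the square root of that test's F statistic. It is therefore no measure of precision separate from the p-value. A gene is said to have risen or fallen only where that p was under 0.05. Library totals were 55415835 to 57583153 counts in CD fed and 43709367 to 48039551 counts in HFD fed livers and did not overlap (exact permutation test, two-sided p = 0.02857, the smallest that 4 against 4 can give). Adjusted over 11 library properties this p was 0.1048. The trimmed-mean scaling factors did not overlap either, at 0.965 to 0.984 in CD fed and 1.0005 to 1.054 in HFD fed livers (same p and adjusted p). At these depths 3 counts, taken as the detection floor, correspond to 0.0536 to 0.0686 CPM. Principal components were computed from the 500 genes with the highest variance across the 8 libraries, and the first (46.0% of the variance) separated the diets. On the second (25.3%), HFD fed 4 (-27.9) and CD fed 1 (-17.3) stood apart from the other 6 (-2.28 to 11.7). Both libraries carry more transcripts of macrophage genes than their groups, described further on. Counts of some gene lists are therefore also given without them, a choice made after the data were seen. Marker sums of hepatocytes (115870 to 151670 CPM over the 8 livers), Kupffer cells, stellate cells, bile duct cells, lymphocytes, erythrocytes and exocrine pancreas overlapped between diets, and none of the 60 marker genes tested passed the threshold. Of 6 adipocyte markers 3 had enough counts to be tested. The sum of all 6 came nearly all from Car3, which hepatocytes also express. This sum was 2097 to 4272 CPM in CD fed and 1359 to 2402 CPM in HFD fed livers (exact permutation p = 0.0857, adjusted p = 0.236). Its part in the results was not tested. The summed level of 8 sinusoidal endothelial markers was 343 to 384 CPM in CD fed and 304 to 341 CPM in HFD fed livers (exact permutation p = 0.02857, adjusted p = 0.1048 over 11 library properties), and its part in the results was not tested. In RNA of whole liver, fewer cells of a type and less RNA per cell cannot be told apart.

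Of the 15075 genes tested, 7.50% passed the threshold for a diet effect in the fed state, 3.28% as higher and 4.22% as lower in HFD fed livers, and the 4 libraries of one diet did not overlap the 4 of the other for 15.7% of all genes. These shares are the background for the counts below. The median change of all genes was 0.0066 on the log2 scale. The number of genes passing depended on single libraries. Leaving out CD fed 1 (741), CD fed 2 (514), HFD fed 1 (739) or HFD fed 3 (567) lowered it by over 1.5 times. It also depended on scaling in its balance. Of the genes called, 43.8% were higher in HFD with the trimmed mean of M-values and 68.8% were higher with scaling to total counts, which shifted the median of all genes to 0.08.

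**Figure D1:**
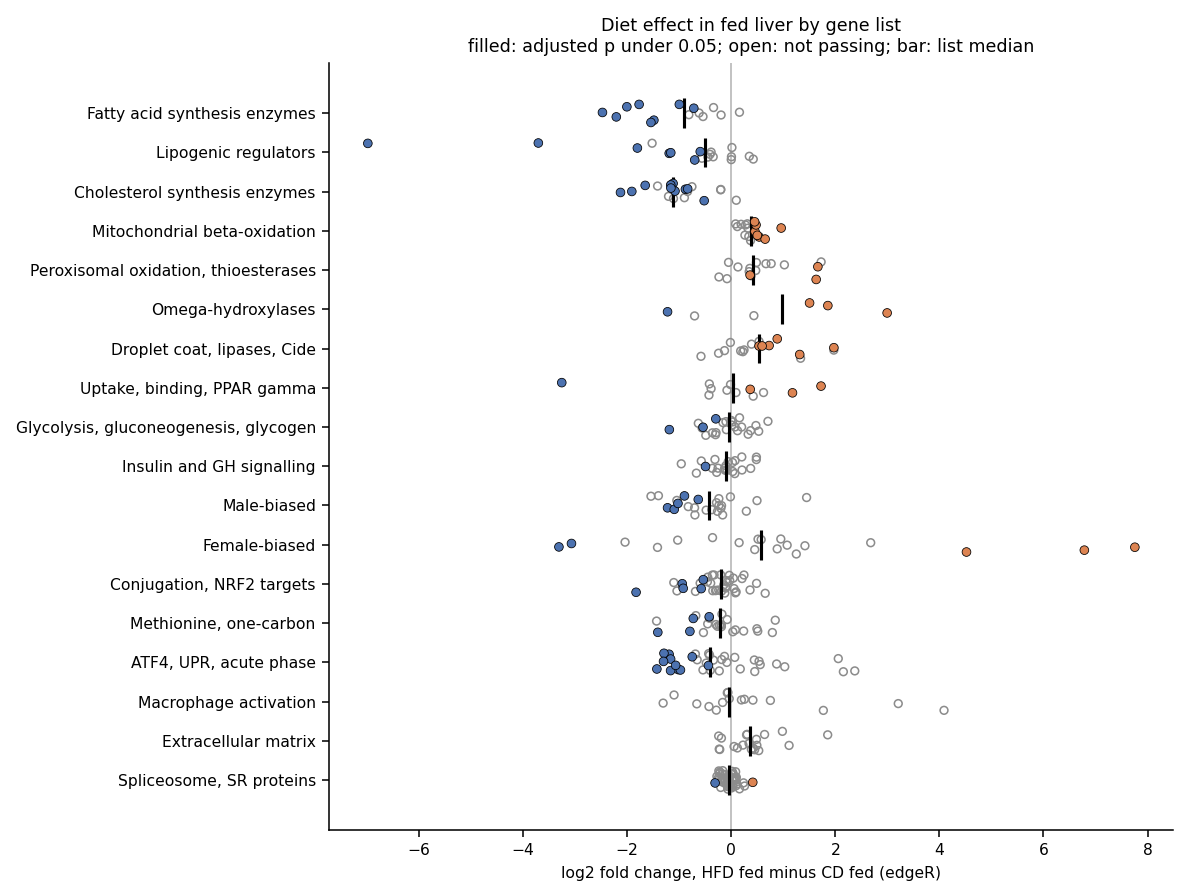
Log2 fold change of HFD fed over CD fed livers for every tested member of 18 gene lists, 1 point per gene, with filled points for adjusted p under 0.05 (edgeR, n = 4 livers per diet), open points for genes that did not pass and a bar at the list median. To the left of 0 lie 13 of 14 fatty acid and 20 of 21 cholesterol synthesis enzymes, with medians of -0.91 and -1.11. The 17 genes of mitochondrial beta-oxidation all lie to the right with a median of 0.37.

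Genes of de novo lipogenesis fell in part, with 15 of 32 tested members lower in HFD fed livers and 0 higher. Of 14 enzymes of fatty acid synthesis, 8 fell and none rose, and the list's median log2 fold change was -0.91. The level of Acly (ENSMUSG00000020917, chr11:100476353-100528000, minus strand), which cleaves citrate to supply cytosolic acetyl-CoA, was 507, 1016, 661 and 631 CPM in the CD fed and 229, 192, 213 and 190.1 CPM in the HFD fed libraries. Acly had a log2 fold change of -1.77 (SE 0.19, adjusted p = 0.000187). Acss2, which makes acetyl-CoA from acetate, was at 287, 638, 351 and 358 CPM in the CD fed and 104, 103, 91.5 and 53.6 CPM in the HFD fed libraries. Acss2 had a log2 fold change of -2.21 (SE 0.25, adjusted p = 0.000238). In both genes the lowest CD library was more than 2 times the highest HFD library. Acaca, the carboxylase that commits acetyl-CoA to fatty acid synthesis, fell less, from 289 ± 45.8 to 145 ± 11.95 CPM (mean ± SD, n = 4 per diet; log2 fold change -0.999, SE 0.12, adjusted p = 0.00031). Its mitochondrial relative Acacb, whose product malonyl-CoA restrains fatty acid import into mitochondria, fell from 275 ± 72.8 to 97.9 ± 17.2 CPM. Acacb had a log2 fold change of -1.49 (SE 0.31, adjusted p = 0.0091). Fatty acid synthase, Fasn, had a log2 fold change of -1.54 (SE 0.19, adjusted p = 0.00031). For Elovl6, which extends palmitate, levels were 139, 348, 362 and 202 CPM in the CD fed and 55.3, 62.2, 58.3 and 85.8 CPM in the HFD fed libraries. Elovl6 had a log2 fold change of -2.01 (SE 0.25, adjusted p = 0.000381), and the CD libraries were spread from 139 to 362 CPM whereas 3 of the HFD libraries lay within 55.3 to 62.2.

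The remaining members of that list that fell were Scd1 and Me1, which lie outside the rule by which genes were chosen for naming and were added after their values were seen. Scd1, the desaturase that converts stearate to oleate, was at 16354, 23916, 18304 and 12761 CPM in the CD fed and 3022, 1749.9, 2923 and 5124 CPM in the HFD fed libraries. Scd1 had a log2 fold change of -2.48 (SE 0.63, adjusted p = 0.0279). Me1, the malic enzyme that supplies NADPH, fell less (log2 fold change -0.72, SE 0.21, adjusted p = 0.0473), and its groups overlapped. Both calls depended on single libraries, each left out on its own, and on the method. Scd1 did not pass without CD fed 2 or HFD fed 1, 2 or 3 (adjusted p 0.06995 to 0.07759), nor with limma-voom (0.06174). Me1 did not pass without CD fed 2, 3 or 4 or HFD fed 1, 2 or 4 (adjusted p 0.06489 to 0.1521), nor with limma-voom, total count scaling or the 8 fed libraries alone (0.05269 to 0.1005). The other 6 enzymes kept their call in every fit that left out 1 library, and without CD fed 1 and HFD fed 4 together 7 of the 8 still passed. Acss2 shares its locus with Gss and Ggt7 on the opposite strand, and the strand setting of the counting is not given in the sources used here.

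Of 18 regulators and genes that share the lipogenic programme, 7 fell, none rose and the median was -0.51. The largest fall among these with a substantial count was that of Pnpla3 (ENSMUSG00000041653, chr15:84167837-84187236, plus strand), a lipase-like protein of lipid droplets whose gene is a target of SREBP1c. Its level was 14.2, 13.6, 13.9 and 6.61 CPM in the CD fed and 0.932, 0.591, 0.869 and 1.28 CPM in the HFD fed libraries. Pnpla3 had a log2 fold change of -3.71 (SE 0.27, adjusted p = 3.87e-06), so the lowest CD library, CD fed 4, was more than 5 times the highest HFD library. Its relative Pnpla5 was counted 99, 81, 83 and 104 times in the CD fed libraries and 0, 0, 0 and 2 times in the HFD fed libraries, a ratio of 157 of CD over HFD after scaling by the same scaled library sizes as the CPM (95% interval 43.1 to 1300, exact, counting error only). Rdh11, a retinol dehydrogenase regulated by SREBPs, fell from 105 ± 15.9 to 30.1 ± 4.98 CPM. Rdh11 had a log2 fold change of -1.81 (SE 0.22, adjusted p = 0.00031). The level of Insig1, the endoplasmic reticulum anchor that is itself induced by active SREBPs, was 368, 347, 335 and 218 CPM in the CD fed and 145, 157, 123 and 129 CPM in the HFD fed libraries. Insig1 had a log2 fold change of -1.19 (SE 0.23, adjusted p = 0.0058). Scap, which escorts SREBPs to the Golgi, fell by 0.60 on the log2 scale (SE 0.13, adjusted p = 0.0119), and the sterol-regulated protein gene Tmem97 fell by 0.70 (SE 0.13, adjusted p = 0.00534). Pklr, the liver pyruvate kinase and a ChREBP target, also fell (log2 fold change -1.16, SE 0.28, adjusted p = 0.0198), although CD fed 1 (211 CPM) lay within the HFD range (187 to 277). Pklr was added after its values were seen. Pklr did not pass without CD fed 2 or 3 or HFD fed 3 or 4 (adjusted p 0.05035 to 0.07405), nor with the 8 fed libraries alone (0.06182).

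Thrsp, a lipogenic protein induced by feeding, had the largest change among members that did not pass. It was at 183, 718, 783 and 371 CPM in the CD fed and 215, 149, 212 and 139.8 CPM in the HFD fed libraries (log2 fold change -1.52, SE 0.56, adjusted p = 0.109). CD fed 1 was again the CD library nearest to the HFD livers, as it was for Acly, Acss2, Elovl6, Acacb and Pklr.

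**Figure D2:**
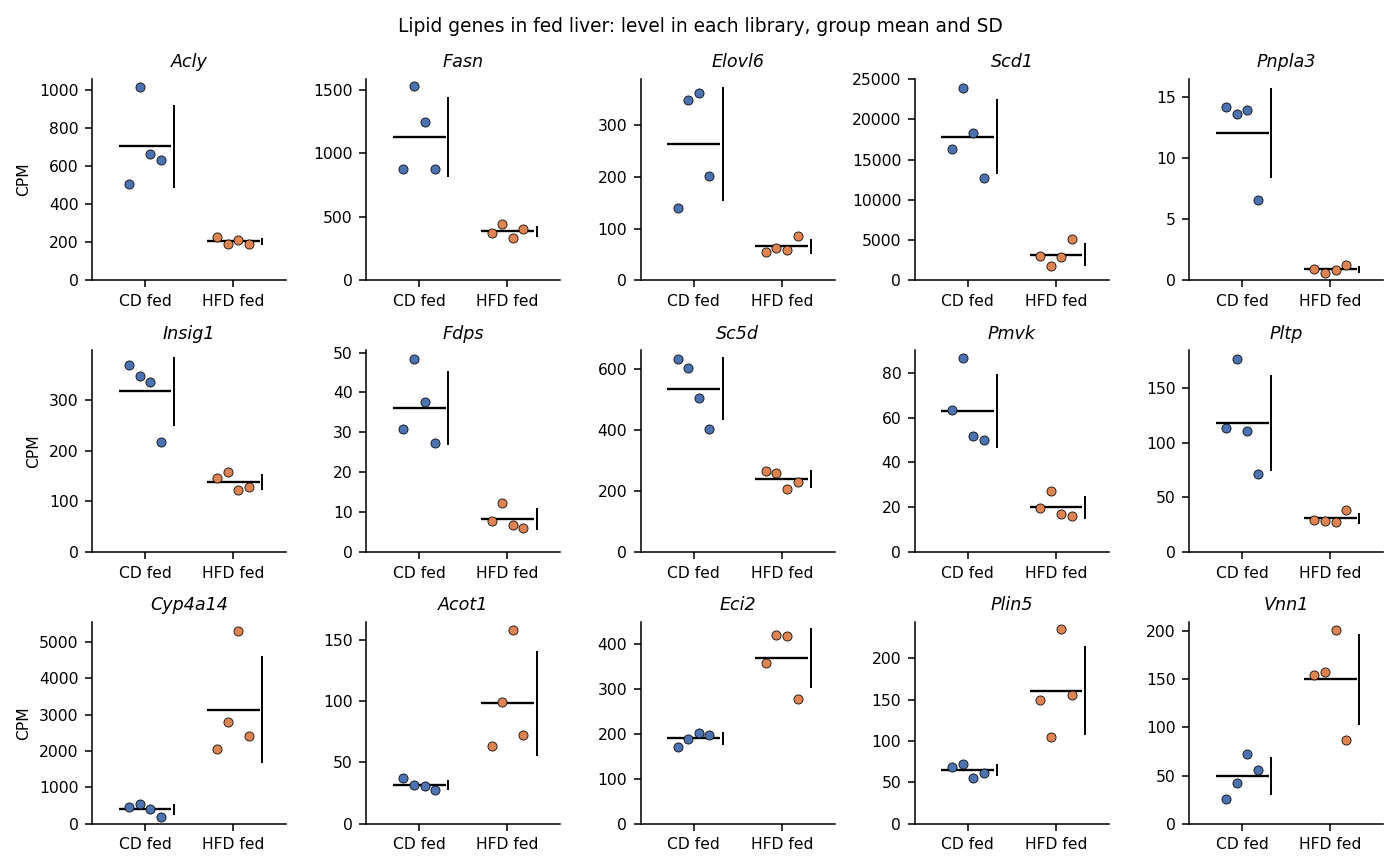
CPM in each fed liver for 15 lipid genes (blue, CD fed; orange, HFD fed), with a line at the group mean and a bar for ± 1 SD (n = 4 per diet). In each panel the 4 livers of one diet lie apart from the 4 of the other, with Cyp4a14 at 180 to 546 CPM in CD fed and 2064 to 5297 CPM in HFD fed livers.

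Part of the cholesterol synthesis pathway fell. Of 21 enzymes 10 fell, none rose, 20 had a negative log2 fold change and the median was -1.11. The 4 libraries of each diet did not overlap for 15 of the 21. Fdps, which makes farnesyl diphosphate, had the largest change among them, at 30.8, 48.4, 37.6 and 27.5 CPM in the CD fed and 7.81, 12.3, 6.86 and 5.99 CPM in the HFD fed libraries. Fdps had a log2 fold change of -2.13 (SE 0.47, adjusted p = 0.013). Pmvk, the phosphomevalonate kinase, was at 63.5, 86.5, 51.9 and 50.1 CPM in the CD fed and 19.5, 27.3, 16.97 and 16.3 CPM in the HFD fed libraries. Pmvk had a log2 fold change of -1.66 (SE 0.24, adjusted p = 0.00121). The highest HFD library was below the lowest CD library in both genes, and HFD fed 2 was the highest of the HFD libraries in each. Later steps fell by smaller amounts. These were Lss (-1.16, SE 0.23, adjusted p = 0.00641), which cyclizes squalene epoxide to lanosterol, and Sc5d (-1.16, SE 0.16, adjusted p = 0.000706), a sterol desaturase. They also included Dhcr7 (-1.12, SE 0.25, adjusted p = 0.0133), which performs the last reduction to cholesterol, and Ebp (-0.52, SE 0.102, adjusted p = 0.00697), a sterol isomerase. At the head of the pathway, Acat2 (-0.88, SE 0.17, adjusted p = 0.00622) supplies acetoacetyl-CoA in the cytosol.

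Also lower were Mvd (-1.91) and Fdft1 (-1.08), which with Dhcr7 were added to the genes chosen by rule after their values were seen. Mvd did not pass without CD fed 2 or HFD fed 1 or 3 (adjusted p 0.05319 to 0.06236). Fdft1 did not pass without CD fed 1 or 2 or HFD fed 1, 3 or 4 (adjusted p 0.0559 to 0.09284). Without CD fed 1 and HFD fed 4 together, 5 of the 10 enzymes still passed. Sqle, the squalene epoxidase, did not pass despite groups that did not overlap, at 69.7, 78.3, 75.5 and 66.9 CPM in the CD fed and 23.4, 54.4, 20.01 and 11.004 CPM in the HFD fed libraries (log2 fold change -1.42, adjusted p = 0.152). HFD fed 2 was the highest of its group at 54.4 CPM. Among 13 genes of sterol sensing, uptake and efflux 6 had an unadjusted p under 0.05 (22.9% of all genes) and 5 did not overlap between diets. Only Mylip passed after adjustment, against 3 genes without HFD fed 4, 3 with DESeq2, 3 with scaling to total counts and 4 with the 8 fed libraries alone. Mylip is the ubiquitin ligase that degrades the LDL receptor and is induced by the sterol receptor LXR, and it rose from 9.09 ± 0.846 to 16.9 ± 1.94 CPM. Mylip had a log2 fold change of 0.89 (SE 0.14, adjusted p = 0.00172).

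Promoter sequences were searched for letters that are known as binding motifs, for the synthesis genes that fell. In RefSeq promoters of GRCm38.p6, taken as the 250 bases before the annotated start and read on both strands, the E-box CACGTG, a motif bound by SREBPs and other basic helix-loop-helix factors, was present for 4 of the 14 lipogenic genes that fell and were in the table (28.6%, Insig1, Pnpla5, Rdh11 and Scap). It was present for 2 of the 7 such cholesterol enzymes (28.6%, Dhcr7 and Sc5d) and for 6.86% of 27025 gene symbols. A sterol regulatory element spelled TCACNCCAC was present for 0 of either and for 1.22% of all. The 3 stretches below show the E-box in capitals in the promoter of a regulator, a retinol dehydrogenase and a sterol enzyme that fell. Each was limited to 200 bases of the window and holds no annotated exon. They are Insig1 (chr5:28071162-28071361, plus strand), Rdh11 (chr12:79191012-79191211, minus strand) and Sc5d (chr9:42264351-42264550, minus strand), each written 5′ to 3′ on the gene's strand. The Rdh11 stretch precedes the RefSeq start but lies inside the span that GENCODE gives the gene (chr12:79174337-79192293).
Insig1: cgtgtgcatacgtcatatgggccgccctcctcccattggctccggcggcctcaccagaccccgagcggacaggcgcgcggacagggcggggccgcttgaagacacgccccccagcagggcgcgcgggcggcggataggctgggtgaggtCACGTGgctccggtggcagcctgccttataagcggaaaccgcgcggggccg
Rdh11: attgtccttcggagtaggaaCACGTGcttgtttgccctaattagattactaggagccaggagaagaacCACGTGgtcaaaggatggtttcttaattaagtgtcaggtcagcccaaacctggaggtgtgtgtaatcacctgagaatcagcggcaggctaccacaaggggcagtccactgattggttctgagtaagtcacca
Sc5d: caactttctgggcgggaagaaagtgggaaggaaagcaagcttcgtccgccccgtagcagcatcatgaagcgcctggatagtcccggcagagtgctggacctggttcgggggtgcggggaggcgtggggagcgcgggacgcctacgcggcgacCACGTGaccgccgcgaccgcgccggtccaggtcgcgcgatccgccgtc
A match of letters is a description of the sequence and not evidence that a factor was bound in these livers.

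Fatty acid oxidation genes rose in part. All 17 genes of the carnitine shuttle and mitochondrial beta-oxidation had positive log2 fold changes, 7 rose and the median was 0.37. The largest rise was in Eci2 (ENSMUSG00000021417, chr13:34977748-35027096, minus strand), an isomerase needed for unsaturated fatty acids, at 171, 188, 203 and 198 CPM in the CD fed and 359, 421, 419 and 279 CPM in the HFD fed libraries. Eci2 had a log2 fold change of 0.96 (SE 0.15, adjusted p = 0.00174). Of the acyl-CoA dehydrogenases, Acadm (medium chain) rose from 357 ± 24.5 to 561 ± 87.9 CPM. Acadm had a log2 fold change of 0.65 (SE 0.12, adjusted p = 0.00564). Acadl (long chain) rose from 188 ± 12.4 to 273 ± 29.4 CPM. Acadl had a log2 fold change of 0.54 (SE 0.09, adjusted p = 0.00292). Hadhb, a subunit of the trifunctional protein, rose from 224 ± 18.6 to 312 ± 33.8 CPM. Hadhb had a log2 fold change of 0.48 (SE 0.099, adjusted p = 0.0098). The other 3 were Decr1 (0.501), Slc25a20 (0.45) and Cpt2 (0.46), a dienoyl-CoA reductase, the carnitine-acylcarnitine carrier and a carnitine palmitoyltransferase. Cpt2 was added after its values were seen. Decr1 did not pass without CD fed 1 or 2 or HFD fed 3 (adjusted p 0.05562 to 0.06774). Slc25a20 did not pass without CD fed 1, 2 or 4 or HFD fed 3 (adjusted p 0.05411 to 0.0808). Cpt2 did not pass without CD fed 1, 2, 3 or 4 or HFD fed 1, 2 or 3 (adjusted p 0.05223 to 0.1452), nor with no filter on low counts (0.0648).

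Cpt1a, the transferase that admits long-chain fatty acids to the mitochondrion, did not pass, at 532, 491, 479 and 526 CPM in the CD fed and 606, 645, 754 and 756 CPM in the HFD fed libraries (log2 fold change 0.44, SE 0.17, adjusted p = 0.126), although its groups did not overlap. With scaling to total counts 13 of the 17 genes passed. Of 5 ketogenic genes only the thiolase Acat1 (0.42, SE 0.104, adjusted p = 0.0228) rose, and 3 passed with scaling to total counts. Acat1 did not pass without CD fed 1, 2 or 4 or HFD fed 2 or 3 (adjusted p 0.05487 to 0.07679). In the TCA cycle and pyruvate dehydrogenase list 1 of 28 genes rose, Idh3a (0.48, SE 0.13, adjusted p = 0.0397). Idh3a did not pass without CD fed 1, 2, 3 or 4 or HFD fed 2, 3 or 4 (adjusted p 0.05947 to 0.1296), nor with no filter on low counts (0.05253).

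The largest rises in lipid oxidation were among the omega-hydroxylases and thioesterases, classical PPAR alpha targets. Cyp4a14 (ENSMUSG00000028715, chr4:115486200-115496142, minus strand), which hydroxylates the terminal carbon of fatty acids, was at 452, 546, 398 and 179.7 CPM in the CD fed and 2064, 2788, 5297 and 2425 CPM in the HFD fed libraries. Cyp4a14 had a log2 fold change of 2.996 (SE 0.38, adjusted p = 0.000369). Cyp4a10 was at 207, 351, 358 and 302 CPM in the CD fed and 454, 849, 1374 and 779 CPM in the HFD fed libraries. Cyp4a10 had a log2 fold change of 1.505 (SE 0.297, adjusted p = 0.00722) and Cyp4a31 rose as well (log2 fold change 1.86, SE 0.53, adjusted p = 0.046). HFD fed 3 had the highest level of all 3 genes and HFD fed 1 the lowest among HFD livers. The family did not move as one: Cyp4a12b, which male livers express above female livers, fell from 90.6 ± 23.2 to 38.8 ± 14.3 CPM. Cyp4a12b had a log2 fold change of -1.23 (SE 0.34, adjusted p = 0.0395). Cyp4a31 did not pass without CD fed 2, 3 or 4 or HFD fed 2, 3 or 4 (adjusted p 0.06824 to 0.1365), nor with the replicate block (0.06944). Cyp4a12b did not pass without CD fed 2, 3 or 4 or HFD fed 1 or 3 (adjusted p 0.06294 to 0.1158), nor with total count scaling (0.05664). These genes are close copies of each other, and the authors' counting may divide their reads unevenly.

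The cytosolic and mitochondrial acyl-CoA thioesterases Acot1 and Acot2 are near-identical neighbours. Acot1 was at 37.3, 31.8, 30.5 and 27.4 CPM in the CD fed and 63.3, 99.6, 158 and 72.5 CPM in the HFD fed libraries. Acot1 had a log2 fold change of 1.63 (SE 0.34, adjusted p = 0.0091). Acot2 was at 5.18, 5.88, 5.199 and 4.09 CPM in the CD fed and 7.03, 11.1, 27.8 and 18.6 CPM in the HFD fed libraries. Acot2 had a log2 fold change of 1.66 (SE 0.33, adjusted p = 0.008). HFD fed 3 was highest in both. Acot3 had a larger log2 fold change but did not pass (1.73, SE 0.53, adjusted p = 0.0601). The peroxisomal reductase Decr2 (0.36, SE 0.09, adjusted p = 0.0279) completed the 3 rises among 16 peroxisomal and thioesterase genes. Decr2 did not pass without CD fed 1, 2 or 4 or HFD fed 2 or 3 (adjusted p 0.062 to 0.0796), nor with no filter on low counts (0.06022). With scaling to total counts 8 of the 16 passed. Among 13 PPAR alpha cofactors and further targets, Vnn1, a pantetheinase, rose from 49.1 ± 19.7 to 149.9 ± 46.9 CPM. Vnn1 had a log2 fold change of 1.61 (SE 0.33, adjusted p = 0.00887). The fatty acid transporter Slc27a1 (1.55, SE 0.41, adjusted p = 0.0308) rose too. Slc27a1 did not pass without CD fed 1, 2, 3 or 4 or HFD fed 2 or 3 (adjusted p 0.05574 to 0.08466), nor with limma-voom (0.06436).

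The diet effect on these pathways was then compared between fed and fasted mice, by the test of the difference between the 2 diet effects (edgeR contrast over all 16 libraries). The difference passed for 2.59% of all genes. It passed for 4 of 14 fatty acid synthesis enzymes, 5 of 18 lipogenic regulators and 8 of 21 cholesterol enzymes, and for 6 of 17 mitochondrial oxidation genes, 4 of 16 peroxisomal and thioesterase genes and 3 of 6 omega-hydroxylases. In fasted mice the medians of these lists were -0.08, 0.02, 0.44, -0.21, -0.13 and -1.09. Examples among the synthesis genes are Pnpla3 (-3.71 fed, 0.09 fasted, adjusted p of the difference = 0.00116) and Fasn (-1.54 fed, 0.42 fasted, adjusted p of the difference = 0.00287). Among cholesterol enzymes an example is Fdps (-2.13 fed, 1.34 fasted, adjusted p of the difference = 0.0173). The fasted effect of Fdps did not pass (adjusted p = 0.0992), nor did that of any other of the 21 cholesterol enzymes. In the opposite direction stood Cyp4a14 (2.996 fed, -1.07 fasted, adjusted p of the difference = 0.00287) and Acot1 (1.63 fed, -0.94 fasted, adjusted p of the difference = 0.0142). So did Acadl (0.54 fed, -0.22 fasted, adjusted p of the difference = 0.0114). The fasted effects of Cyp4a14, Acot1 and Acadl did not pass (edgeR adjusted p = 0.0756, 0.0868 and 0.147). Nor did those of Pnpla3 and Fasn (0.890 and 0.156). Levels on CD also differed by feeding state, with means of 394 CPM fed and 10413 CPM fasted for Cyp4a14. For Fasn they were 1130 and 104 CPM. The part of these levels in the differences was not tested. The largest difference that passed in the lipogenic lists was that of Thrsp (-1.52 fed, 3.07 fasted, adjusted p of the difference = 0.0132), a gene that did not pass in the fed state alone. Elovl6 fell in both states, by 2.01 in fed and 0.90 in fasted livers on the log2 scale (adjusted p in fasted = 0.0377, where 7.70% of all genes passed), and the difference between the 2 effects did not pass (adjusted p = 0.1).

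**Figure D3:**
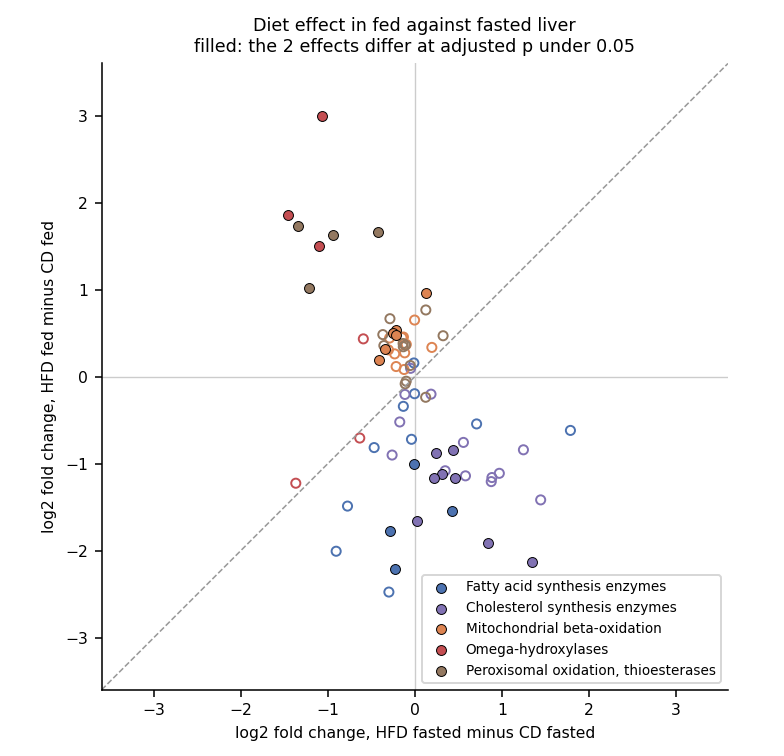
Diet effect (log2 fold change, HFD over CD) in fed livers on the vertical axis against fasted livers on the horizontal axis for members of 5 lipid lists, 4 livers per group, with filled points where the 2 effects differed at adjusted p under 0.05 and a dashed line of equal effects. Cyp4a14 lies at 2.996 fed and -1.07 fasted, and Fdps at -2.13 fed and 1.34 fasted.

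Lipid storage genes rose in part. Of 17 genes of the droplet coat, its lipases and Cide proteins, 6 rose, none fell and the median was 0.53. Plin4, a perilipin, was at 18.2, 23.7, 19.7 and 19.7 CPM in the CD fed and 74.9, 41.7, 108 and 93.9996 CPM in the HFD fed libraries. Plin4 had a log2 fold change of 1.97 (SE 0.21, adjusted p = 0.000142). Plin5, the perilipin that links droplets to mitochondria, was at 69.1, 72.6, 55.8 and 61.3 CPM in the CD fed and 149, 105, 235 and 155 CPM in the HFD fed libraries. Plin5 had a log2 fold change of 1.32 (SE 0.24, adjusted p = 0.00456). HFD fed 2 was the lowest of the HFD livers and HFD fed 3 the highest for both perilipins. Hsd17b11, a droplet-associated dehydrogenase, rose from 140.03 ± 11.3 to 232 ± 23.3 CPM. Hsd17b11 had a log2 fold change of 0.73 (SE 0.11, adjusted p = 0.00124). The lipases Pnpla2 (0.88, SE 0.23, adjusted p = 0.0308) and Mgll (0.59, SE 0.16, adjusted p = 0.0377) and the droplet-forming Fitm2 (0.53, SE 0.16, adjusted p = 0.0488) rose by less. Pnpla2 did not pass without CD fed 1, 2, 3 or 4 or HFD fed 2, 3 or 4 (adjusted p 0.0501 to 0.07623). Mgll did not pass without CD fed 1, 2 or 4 or HFD fed 2, 3 or 4 (adjusted p 0.05139 to 0.1251). Fitm2 did not pass without CD fed 1, 2 or 4 or HFD fed 1, 2, 3 or 4 (adjusted p 0.05008 to 0.1595), nor with no filter on low counts (0.06299). Without CD fed 1 and HFD fed 4 together 3 of the 6 passed. Cidec, which fuses droplets, had a log2 fold change of 1.97 (SE 0.59) that did not pass (adjusted p = 0.0532), at 7.09, 3.99, 18.99 and 5.79 CPM in the CD fed and 18.5, 8.41, 50.2 and 63.3 CPM in the HFD fed libraries. CD fed 3 overlapped the HFD livers, which ranged from 8.41 to 63.3.

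Glycerolipid synthesis changed at 3 of 13 genes. Gpat3, which starts triglyceride assembly from glycerol 3-phosphate, was at 2.72, 1.97, 3.69 and 2.86 CPM in the CD fed and 13.3, 11.1, 31.4 and 17.8 CPM in the HFD fed libraries. Gpat3 had a log2 fold change of 2.71 (SE 0.33, adjusted p = 0.00031). The lowest HFD level (11.1 CPM) lay well above the highest CD level (3.69 CPM). Agpat1 (0.34) rose and Gpam (-0.46), the mitochondrial glycerol phosphate acyltransferase under SREBP1c, fell. Agpat1 did not pass without CD fed 1 or 2 or HFD fed 2, 3 or 4 (adjusted p 0.05813 to 0.08239), nor with no filter on low counts or the 8 fed libraries alone (0.06355 to 0.06511). Gpam did not pass without CD fed 1, 2 or 3 or HFD fed 3 or 4 (adjusted p 0.05375 to 0.08077). With CD fed 1 and HFD fed 4 both left out Gpat3 alone passed.

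Among 12 genes of fatty acid uptake and binding 3 rose and 1 fell. Fabp5, a fatty acid binding protein more typical of skin and macrophages than of hepatocytes, was at 111, 60.7, 41.9 and 58.9 CPM in the CD fed and 4.596, 11.3, 2.88 and 9.58 CPM in the HFD fed libraries. Fabp5 had a log2 fold change of -3.26 (SE 0.48, adjusted p = 0.00125), so that the highest HFD library (11.3 CPM) lay below the lowest CD library (41.9 CPM). Cd36, a fatty acid translocase that accumulates in fatty liver, was at 38.6, 50.6, 85.4 and 45.3 CPM in the CD fed and 118, 56.9, 196 and 127 CPM in the HFD fed libraries. Cd36 had a log2 fold change of 1.18 (SE 0.31, adjusted p = 0.0308), with HFD fed 2 within the CD range. The lipoprotein receptor Vldlr (1.72, SE 0.403, adjusted p = 0.0183) and the acyl-CoA synthetase Slc27a2 (0.36, SE 0.098, adjusted p = 0.0342) also rose. Cd36 did not pass without CD fed 1, 2 or 4 or HFD fed 1, 3 or 4 (adjusted p 0.05351 to 0.1106), nor with the 8 fed libraries alone (0.07704). Vldlr did not pass without CD fed 1 (adjusted p 0.05126). Slc27a2 did not pass without CD fed 1, 2 or 3 or HFD fed 1, 2 or 3 (adjusted p 0.06824 to 0.09974), nor with no filter on low counts or the replicate block (0.05002 to 0.08228). Of these 4 genes Fabp5 alone passed without CD fed 1 and HFD fed 4 together. Of 18 apolipoprotein and lipoprotein assembly genes 2 fell, with a median of -0.15. The number passing ranged from 1 (without CD fed 2) to 3 when 1 library was left out. Pltp, the phospholipid transfer protein, was at 113, 177, 110.3 and 71.5 CPM in the CD fed and 29.4, 28.7, 27.1 and 38.2 CPM in the HFD fed libraries. Pltp had a log2 fold change of -1.93 (SE 0.22, adjusted p = 0.000238), and it overlaps Ctsa on the opposite strand.

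Of 24 genes of glycolysis, gluconeogenesis and glycogen 3 fell, none rose and the median was -0.05. G6pdx, the first enzyme of the pentose phosphate pathway and a source of NADPH for lipid synthesis, was at 8.28, 15.2, 8.48 and 7.88 CPM in the CD fed and 3.83, 3.39, 4.300 and 5.89 CPM in the HFD fed libraries. G6pdx had a log2 fold change of -1.19 (SE 0.21, adjusted p = 0.00371). The glycogen phosphorylase Pygl (-0.54, SE 0.13, adjusted p = 0.02) and the glycolytic kinase Pgk1 (-0.297, SE 0.08, adjusted p = 0.038) also fell. Pygl did not pass without CD fed 2 or HFD fed 4 (adjusted p 0.05313 to 0.06404). Pgk1 did not pass without CD fed 2, 3 or 4 or HFD fed 1, 2, 3 or 4 (adjusted p 0.0607 to 0.1009), nor with total count scaling or no filter on low counts (0.06213 to 0.06312). Of 22 genes of insulin, glucagon and growth hormone receptors and signalling, Stat5b alone passed, the transcription factor that carries growth hormone signals, and it fell from 77.4 ± 14.4 to 54.3 ± 7.49 CPM. Stat5b had a log2 fold change of -0.51 (SE 0.13, adjusted p = 0.0242). Its groups overlapped. Stat5b did not pass without CD fed 1, 2 or 4 or HFD fed 3 or 4 (adjusted p 0.05292 to 0.07836), nor with the 8 fed libraries alone (0.06863). None of 11 secreted IGF system genes passed, and 2 had an unadjusted p under 0.05, as did 22.9% of all genes.

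In a list that joins ATF4 targets, the unfolded protein response and acute phase genes, 11 of 34 tested members fell, none rose and the median was -0.41. Positive changes that did not pass were seen in 11 members. The largest was that of the metallothionein Mt2, at 2.52, 2.26, 1.33 and 6.73 CPM in the CD fed and 4.55, 1.99, 4.23 and 55.7 CPM in the HFD fed libraries (log2 fold change 2.37, SE 0.96, adjusted p = 0.148). HFD fed 4 alone was high for Mt2, and without it the log2 fold change was 0.1598. Hspa5 (ENSMUSG00000026864, chr2:34771970-34777547, plus strand), the BiP chaperone of the endoplasmic reticulum lumen, was at 1377, 1222, 1163 and 656 CPM in the CD fed and 521, 466, 572 and 369.8 CPM in the HFD fed libraries. Hspa5 had a log2 fold change of -1.196 (SE 0.26, adjusted p = 0.0123). Hsp90b1, the lumenal HSP90, was at 1121, 947, 1114 and 951 CPM in the CD fed and 618, 617, 684 and 539 CPM in the HFD fed libraries. Hsp90b1 had a log2 fold change of -0.75 (SE 0.15, adjusted p = 0.00865). Pdia4, a disulfide isomerase, was at 319.6, 310.1, 287 and 218 CPM in the CD fed and 135, 142, 155 and 109 CPM in the HFD fed libraries. Pdia4 had a log2 fold change of -1.07 (SE 0.18, adjusted p = 0.00292). In all 3 genes HFD fed 4 was the lowest of the 8 livers, and in Hspa5 and Pdia4 CD fed 4 was the lowest CD library. Manf, a secreted stress protein, fell from 103 ± 32.2 to 38.1 ± 7.42 CPM. Manf had a log2 fold change of -1.43 (SE 0.29, adjusted p = 0.00853). Sdf2l1, a cofactor of BiP, fell from 37.2 ± 2.38 to 15.1 ± 1.87 CPM. Sdf2l1 had a log2 fold change of -1.302 (SE 0.28, adjusted p = 0.0124). Atf4, the transcription factor of the integrated stress response, fell less, from 86.5 ± 9.29 to 63.8 ± 4.07 CPM. Atf4 had a log2 fold change of -0.44 (SE 0.09, adjusted p = 0.00924). Also lower were the lumenal proteins Creld2 (-1.17), Hyou1 (-1.17) and Dnajb9 (-0.98), which with Sdf2l1 and the pentraxin Apcs (-1.02) were added after their values were seen. Orm1, an acute phase glycoprotein, fell from 397 ± 64.6 to 162 ± 65.03 CPM. Orm1 had a log2 fold change of -1.29 (SE 0.26, adjusted p = 0.00869).

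**Figure D4:**
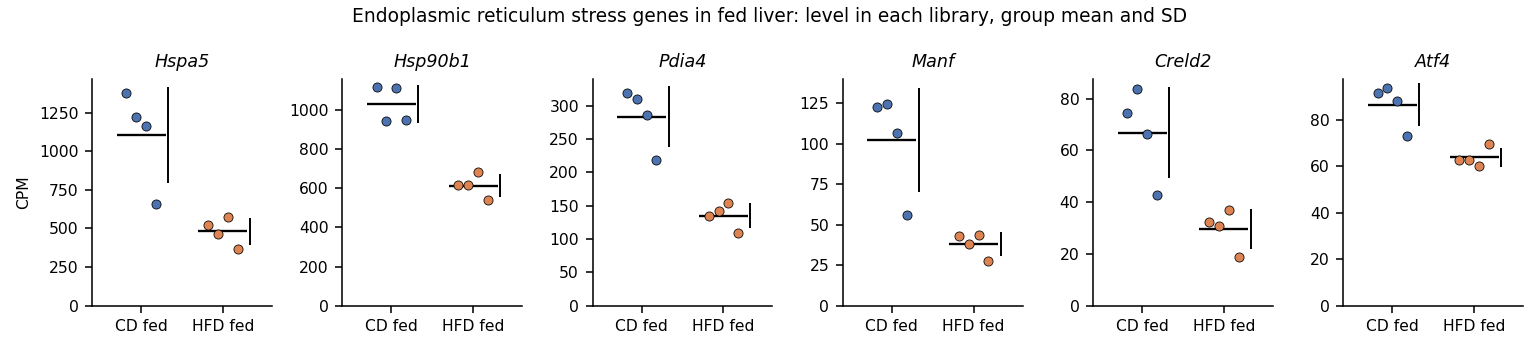
CPM in each fed liver for 6 genes of the endoplasmic reticulum stress response (blue, CD fed; orange, HFD fed), with a line at the group mean and a bar for ± 1 SD (n = 4 per diet). The 4 HFD livers lie below the 4 CD livers in each panel, with Hspa5 at 370 to 572 against 656 to 1377 CPM.

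Some of these calls rested on single livers. Creld2 did not pass without CD fed 1 or 2 or HFD fed 4 (adjusted p 0.05086 to 0.07401). Hyou1 did not pass without CD fed 1 or 2 or HFD fed 4 (adjusted p 0.0537 to 0.07452). Dnajb9 did not pass without CD fed 1 or 2 or HFD fed 1, 2 or 4 (adjusted p 0.05339 to 0.07264), nor with the 8 fed libraries alone (0.0533). Apcs did not pass without CD fed 1 or 2 or HFD fed 3 (adjusted p 0.05198 to 0.05925). Without CD fed 1 and HFD fed 4 together 3 of these 11 genes passed (Pdia4, Atf4 and Orm1), and Hspa5 had an adjusted p of 0.0798.

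The promoters of 8 of these 11 genes were in the RefSeq table. The endoplasmic reticulum stress response element, spelled CCAAT, then 9 bases of any kind, then CCACG, and bound by ATF6 with NF-Y, was present within 250 bases before the start for 3 of the 8 (37.5%, Creld2, Hsp90b1 and Hspa5), against 0.13% of all 27025 gene symbols (35 genes). Among the lipogenic genes that fell it was present for Acacb. The lines below show it in capitals, on either strand. The match in Hspa5 (chr2:34772020-34772048, plus strand of GRCm38.p6) begins 65 bases before the RefSeq start and lies in an exon of another annotated transcript, so that only the match and 5 bases on each side are given. Hsp90b1 (chr10:86705510-86705694, minus strand) has 2 matches and Creld2 (chr15:88819396-88819595, plus strand) 1.
Hspa5: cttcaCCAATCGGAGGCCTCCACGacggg
Hsp90b1: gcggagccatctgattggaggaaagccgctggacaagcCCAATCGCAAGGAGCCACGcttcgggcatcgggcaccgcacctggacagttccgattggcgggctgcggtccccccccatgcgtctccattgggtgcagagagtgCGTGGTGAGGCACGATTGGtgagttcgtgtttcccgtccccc
Creld2: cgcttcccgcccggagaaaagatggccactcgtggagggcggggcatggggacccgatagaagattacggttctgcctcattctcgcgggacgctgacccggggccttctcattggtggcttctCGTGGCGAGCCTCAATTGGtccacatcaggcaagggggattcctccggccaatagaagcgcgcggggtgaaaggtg
The Hsp90b1 window also holds a sterol regulatory element by the letters above.

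Detoxification genes and genes that differ between the sexes in mouse liver moved in both directions. Of 25 cytochromes P450 of classes 1 to 3 with their receptors, 2 rose and 3 fell. Por, the reductase that feeds electrons to all microsomal P450 enzymes, was at 238, 424, 305 and 285 CPM in the CD fed and 648, 668, 945 and 825 CPM in the HFD fed libraries. Por had a log2 fold change of 1.302 (SE 0.27, adjusted p = 0.00889). Cyp2c55 was at 8.42, 5.64, 7.17 and 3.91 CPM in the CD fed and 1.14, 0.482, 1.03 and 0.968 CPM in the HFD fed libraries. Cyp2c55 had a log2 fold change of -2.79 (SE 0.38, adjusted p = 0.000704), and Cyp3a59 fell from 23.7 ± 8.94 to 5.89 ± 2.398 CPM. Cyp3a59 had a log2 fold change of -2.01 (SE 0.42, adjusted p = 0.0106). Cyp3a11, the main Cyp3a enzyme of male liver, went from 2439.7 ± 473 to 813 ± 413 CPM with no overlap between groups and did not pass (log2 fold change -1.59, adjusted p = 0.0890). The other 2 were Cyp3a13 (0.46) and Cyp3a25 (-1.07). Cyp3a13 did not pass without CD fed 2 or 3 or HFD fed 1, 3 or 4 (adjusted p 0.0534 to 0.1041). Cyp3a25 did not pass without CD fed 1 or HFD fed 2 or 4 (adjusted p 0.0537 to 0.05815). Of these 5 genes Cyp2c55 alone passed without CD fed 1 and HFD fed 4 together. These families hold close copies whose reads may not be fully separated.

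Of 37 conjugating enzymes and NRF2 targets, 5 fell and none rose. Ces2a, a carboxylesterase that hydrolyses drugs and acylglycerols, was at 433, 411, 435 and 415 CPM in the CD fed and 139, 131, 128 and 77.7 CPM in the HFD fed libraries. Ces2a had a log2 fold change of -1.83 (SE 0.29, adjusted p = 0.00178), with CD libraries within 411 to 435 CPM and HFD fed 4 the lowest. The glutathione transferases Gstm2 (log2 fold change -0.94, SE 0.19, adjusted p = 0.00899) and Gstm6 (log2 fold change -0.92, SE 0.200, adjusted p = 0.0123) fell together. Gstm4 (-0.54) and Ugt2b35 (-0.58) also fell. Gstm4 did not pass without CD fed 1, 2, 3 or 4 or HFD fed 1, 3 or 4 (adjusted p 0.05316 to 0.1375), nor with total count scaling or the 8 fed libraries alone (0.06568 to 0.07257). Ugt2b35 did not pass without any 1 of the 8 libraries (adjusted p 0.05193 to 0.1243), nor with total count scaling or the replicate block (0.06683 to 0.08077).

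Of 24 male-biased genes 5 fell, none rose and the median was -0.43. Besides Cyp4a12b these were Ugt2b1, a glucuronosyltransferase, from 433 ± 66.1 to 213 ± 51.8 CPM (log2 fold change -1.03, SE 0.22, adjusted p = 0.0115), and Nudt7 (-1.096), C8b (-0.900) and Ugt2b38 (-0.63). Nudt7 did not pass without CD fed 3 or HFD fed 3 (adjusted p 0.05649 to 0.06581). C8b did not pass without CD fed 1 (adjusted p 0.05505). Ugt2b38 did not pass without CD fed 1, 3 or 4 or HFD fed 1, 3 or 4 (adjusted p 0.05393 to 0.07798), nor with the 8 fed libraries alone (0.05173). Only Ugt2b1 and Nudt7 passed without CD fed 1 and HFD fed 4 together. Hsd3b5, a strongly male-biased steroid dehydrogenase, did not pass (log2 fold change -1.54, adjusted p = 0.273), with HFD livers spread from 6.76 to 189 CPM. Of 28 female-biased genes 19 had enough counts to be tested, all 9 others being at or under 0.638 CPM in each fed library, and 3 rose and 2 fell. Cyp2b13 was counted 0, 1, 2 and 6 times in CD fed and 47, 11, 100 and 25 times in HFD fed libraries, a ratio of CD over HFD of 0.0421 (95% interval 0.0189 to 0.0816, exact, counting error only), and rose (edgeR adjusted p = 0.0240). Its relative Cyp2b9 was at 0.0729, 1.06, 0.442 and 0.661 CPM in the CD fed and 45.4, 12.7, 162 and 27.6 CPM in the HFD fed libraries. Cyp2b9 had a log2 fold change of 6.79 (SE 1.08, adjusted p = 0.00187), and without HFD fed 3 the value was 5.67. Cyp2a4 was at 0.0729, 0.185, 0.147 and 0.411 CPM in the CD fed and 3.73, 9.76, 29.1 and 137 CPM in the HFD fed libraries, with HFD fed 4 far above the others. Cyp2a4 had a log2 fold change of 7.76 (SE 1.36, adjusted p = 0.00346), against 6.09 without HFD fed 4 and 5.81 without CD fed 1 as well. Cyp2a4 did not pass with limma-voom (adjusted p = 0.135). In the other direction, Cyp2c40 was at 7.71, 6.81, 5.899 and 4.95 CPM in the CD fed and 0.762, 1.29, 0.755 and 0.217 CPM in the HFD fed libraries. Cyp2c40 had a log2 fold change of -3.07 (SE 0.67, adjusted p = 0.013) and its copy Cyp2c69 also fell (log2 fold change -3.31, SE 0.803, adjusted p = 0.022). Cyp2b13 did not pass without CD fed 1, 2 or 3 or HFD fed 3 (adjusted p 0.05706 to 0.0785), nor with limma-voom (0.06935). Cyp2c69 did not pass without CD fed 1 or 2 or HFD fed 1 or 3 (adjusted p 0.05086 to 0.06769). Of these 5 genes Cyp2b9 and Cyp2a4 alone passed without CD fed 1 and HFD fed 4 together. No gene of either list differed in its diet effect between fed and fasted mice at an adjusted p under 0.05.

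Methyl donor metabolism was lower at 4 of 23 genes. Bhmt, which remethylates homocysteine with betaine, was at 1921, 2862, 2834 and 2593 CPM in the CD fed and 915, 872, 1075 and 974 CPM in the HFD fed libraries. Bhmt had a log2 fold change of -1.41 (SE 0.23, adjusted p = 0.00198). Gnmt, the glycine methyltransferase that disposes of excess methyl groups, fell from 1589 ± 322 to 915 ± 139 CPM. Gnmt had a log2 fold change of -0.796 (SE 0.18, adjusted p = 0.0135). The folate enzyme Aldh1l1 fell from 1481 ± 258 to 892 ± 50.4 CPM. Aldh1l1 had a log2 fold change of -0.73 (SE 0.16, adjusted p = 0.0123). Pemt, which makes phosphatidylcholine by methylation, fell from 251 ± 25.5 to 187 ± 4.24 CPM. Pemt had a log2 fold change of -0.42 (SE 0.09, adjusted p = 0.013). The diets were separated without overlap in all 4 genes, as they were in 1019 of the 1131 genes that passed. Gnmt did not pass without CD fed 2 or HFD fed 3 (adjusted p 0.05119 to 0.05363). Pemt did not pass without CD fed 2 (adjusted p 0.05198). Among 32 genes of amino acid catabolism and the urea cycle only Tdo2, the tryptophan dioxygenase, passed, at 1339, 1158, 1199 and 1249 CPM in the CD fed and 2623, 1872, 3261 and 2013 CPM in the HFD fed libraries. Tdo2 had a log2 fold change of 0.98 (SE 0.17, adjusted p = 0.00263).

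Of the bile acid genes 1 of 13 in synthesis and 1 of 16 in transport and sensing passed. At an unadjusted p under 0.05 there were 7 and 8 (22.9% of all genes), and 6 and 5 did not overlap between diets. The counts were 7 and 3 with DESeq2 and 4 and 4 with the 8 fed libraries alone. Cyp39a1, an oxysterol hydroxylase, rose (log2 fold change 0.91, SE 0.21, adjusted p = 0.0176). Abcb4, the canalicular phospholipid exporter, rose from 314 ± 14.8 to 441 ± 39.8 CPM (log2 fold change 0.49, SE 0.12, adjusted p = 0.0238). Cyp39a1 did not pass without CD fed 2 or 3 (adjusted p 0.05005 to 0.06142). Abcb4 did not pass without CD fed 2 or 3 or HFD fed 1 or 3 (adjusted p 0.05376 to 0.07728). Larger changes did not pass in Cyp2c70, which makes muricholic acids in mice, from 384 ± 106 to 107 ± 23.6 CPM (adjusted p = 0.0835). Neither did the bile acid-induced repressor Nr0b2, from 44.5 ± 10.5 to 14.6 ± 7.05 CPM (adjusted p = 0.0682). Groups did not overlap in either gene. Of 19 clock genes 9 had an unadjusted p under 0.05 (22.9% of all genes) and 7 did not overlap between diets (15.7% of all genes). Log2 fold changes were positive for 13 and negative for 6 of them, with a median of 0.26. Arntl alone passed after adjustment, against 5 genes with DESeq2, 5 with the 8 fed libraries alone and 3 with scaling to total counts. Arntl was at 24.2, 11.6, 7.04 and 11.7 CPM in the CD fed and 5.36, 2.39, 3.82 and 3.89 CPM in the HFD fed libraries. Arntl had a log2 fold change of -1.82 (SE 0.42, adjusted p = 0.0185). Arntl did not pass without CD fed 1 or HFD fed 2 or 3 (adjusted p 0.05008 to 0.05684). CD fed 1 had the highest level of Arntl and also of Npas2. Npas2 was at 2.93, 0.853, 0.645 and 1.0004 CPM in the CD fed and 0.381, 0.175, 0.206 and 0.296 CPM in the HFD fed libraries (log2 fold change -2.34, adjusted p = 0.0706). Because collection times are not given, the part of time of day in these values was not tested.

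Inflammation and fibrosis genes did not pass in the fed state. Of 16 genes of macrophage activation and lipid-associated macrophages and 20 of extracellular matrix, 0 passed with edgeR, with medians of -0.05 and 0.36. At an unadjusted p under 0.05 there were 4 and 1 (22.9% of all genes). At most 1 of each list passed in another tool or scaling. When 1 library was left out, at most 2 macrophage genes and 0 matrix genes passed. The livers within a diet differed instead. The summed level of the 16 macrophage genes was 142, 81.3, 73.7 and 82.6 CPM in CD fed and 62.4, 74.3, 68.3 and 167 CPM in HFD fed livers, so HFD fed 4 and CD fed 1 were the highest of their groups. Gpnmb, which marks lipid-associated macrophages, was at 0.729, 0.1298, 0.0184 and 0.143 CPM in the CD fed and 0.212, 0.241, 0.274 and 16.7 CPM in the HFD fed libraries, near the floor in most livers and at 16.7 CPM in HFD fed 4 alone (log2 fold change 4.09, SE 1.61, adjusted p = 0.136). The scavenger receptor Marco was highest in CD fed 1, at 67.2, 10.1, 4.41 and 11.97 CPM in the CD fed and 6.97, 11.7, 5.24 and 29.02 CPM in the HFD fed libraries. Timp1, an inhibitor of matrix proteases, and the bile duct keratin Krt19 were also highest in HFD fed 4 (0.790 and 10.5 CPM). HFD fed 4 was the highest of the 8 livers for 9 of the 16 macrophage genes and 16 of the 20 matrix genes, and for 17.05% of all tested genes. The summed level of the 20 matrix genes, however, was 1883, 2076, 1733 and 2044 CPM in CD fed and 1777, 1620, 1608 and 1798 CPM in HFD fed livers, so HFD fed 4 lay within the CD range. The same library had the lowest sum of 6 Mup genes, male-biased urinary proteins of hepatocytes (3722 CPM, against 10050 to 13700 CPM in the other HFD livers), while CD fed 2 was lowest among CD livers (4025 CPM).

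**Figure D5:**
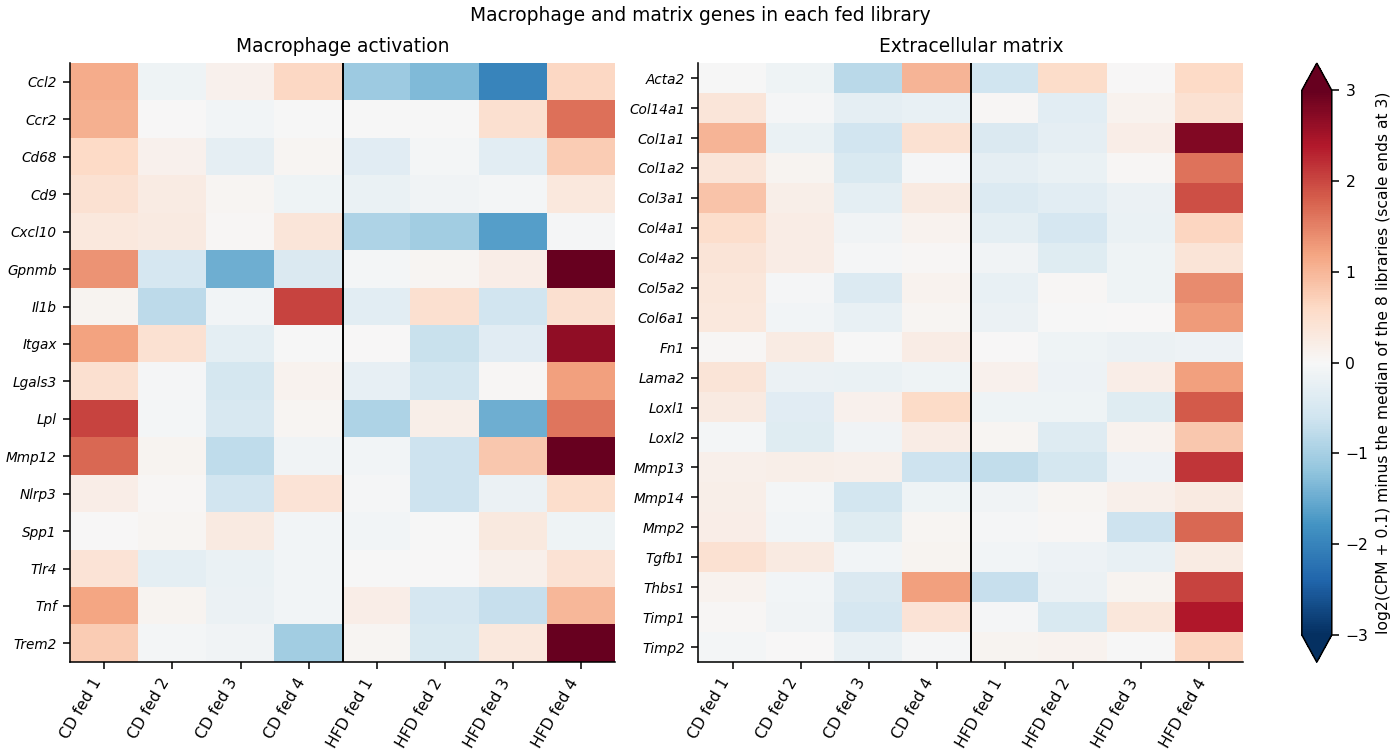
Level of each tested gene of the macrophage list (16 genes) and the extracellular matrix list (20 genes) in the 8 fed livers, as log2(CPM + 0.1) minus the gene's median over the 8 livers, on a colour scale that ends at 3. HFD fed 4 is the highest liver for 9 macrophage and 16 matrix genes, and the macrophage genes sum to 62.4 to 74.3 CPM in the other HFD livers and 73.7 to 142 CPM in the CD livers.

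The study singled out 8 splicing factors by their binding near alternatively spliced exons in human liver cells. For RBFOX2 it also reports less of the main protein isoform in livers on HFD. The values here are of mRNA per gene, which measures neither binding nor protein. At that level the 8 factors did not pass the test for a diet effect in fed livers. Of 8 regulators 0 passed with edgeR, 2 had an unadjusted p under 0.05 (22.9% of all genes), and log2 fold changes ranged from -0.15 to 0.24. Qk was nearest to the threshold (from 38.02 ± 1.25 to 44.8 ± 3.42 CPM, adjusted p = 0.0517) and passed with some alternatives, whereas Rbfox2 (0.12), Tia1 (0.13), Hnrnpc (-0.15), Taf15 (-0.15), U2af2 (-0.09), Pcbp2 (-0.04) and Hnrnpm (-0.02) had adjusted p from 0.195 to 0.860. Scaling to total counts turned the direction of Pcbp2 and Hnrnpm. A list of 52 spliceosome and SR protein genes had a median of -0.04, and 2 passed. Srsf5, an SR protein, rose from 155 ± 12.5 to 206 ± 11.1 CPM. Srsf5 had a log2 fold change of 0.41 (SE 0.08, adjusted p = 0.00723). Snrpc, a U1 component, fell (log2 fold change -0.31, SE 0.07, adjusted p = 0.0183). Snrpc did not pass without CD fed 2 or HFD fed 1 or 3 (adjusted p 0.05452 to 0.07047), nor with total count scaling or the 8 fed libraries alone (0.0508 to 0.06977). Gene counts do not measure splicing itself, which was not analysed here.

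Outside these lists, the naming rule took the largest changes among genes with at least 100 counts on average and no overlap between diets. Among the rises was Krt23, a keratin known from injured and fatty liver, at 1.42, 0.7604, 0.682 and 1.39 CPM in the CD fed and 8.03, 6.698, 15.4 and 9.66 CPM in the HFD fed libraries. Krt23 had a log2 fold change of 3.22 (SE 0.38, adjusted p = 0.00031). Map3k6, a stress-activated kinase, rose from 1.93 ± 0.595 to 7.94 ± 0.861 CPM. Map3k6 had a log2 fold change of 2.04 (SE 0.31, adjusted p = 0.00139). The homeobox gene Pknox2 rose from 0.814 ± 0.151 to 4.69 ± 1.48 CPM. Pknox2 had a log2 fold change of 2.52 (SE 0.31, adjusted p = 0.000355). The kinase Wnk4 rose from 2.81 ± 1.39 to 11.5 ± 4.48 CPM. Wnk4 had a log2 fold change of 2.03 (SE 0.36, adjusted p = 0.00359). The single gene of 17 proliferation genes that passed was Ccne1, cyclin E1, which rose from 0.672 ± 0.05705 to 2.54 ± 0.498 CPM. Ccne1 had a log2 fold change of 1.92 (SE 0.297, adjusted p = 0.00172).

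Falls of comparable size were seen in genes with little known liver function. Chrna4, a nicotinic receptor subunit, had a log2 fold change of -5.04 (SE 0.33). Srgap3, a GTPase activating protein, was at 7.86, 14.8, 6.803 and 6.13 CPM in the CD fed and 0.635, 0.788, 0.732 and 0.7705 CPM in the HFD fed libraries. Srgap3 had a log2 fold change of -3.599 (SE 0.35, adjusted p = 5.92e-05). Dct, known from melanin synthesis, fell from 3.45 ± 1.25 to 0.369 ± 0.268 CPM. Dct had a log2 fold change of -3.23 (SE 0.55, adjusted p = 0.00273). The adhesion receptor Adgrf1 was at 41.8, 13.2, 10.1 and 13.5 CPM in the CD fed and 2.03, 5.01, 0.366 and 3.12 CPM in the HFD fed libraries, with CD fed 1 far above the other CD livers. Adgrf1 had a log2 fold change of -2.895 (SE 0.61, adjusted p = 0.0107), against -2.21 without CD fed 1, and without HFD fed 4 as well it did not pass (adjusted p = 0.0567). Raet1e, a stress ligand of natural killer cells that overlaps its relatives H60b and Raet1d, fell from 7.94 ± 3.15 to 1.403 ± 0.684 CPM. Raet1e had a log2 fold change of -2.49 (SE 0.39, adjusted p = 0.00172). Srgap3 also fell in fasted livers (log2 fold change -3.13, adjusted p = 0.000881), and the difference between the 2 diet effects did not pass (adjusted p = 0.612).

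The genes with the smallest p for a difference between the diet effects in fed and fasted mice, other than lipid genes above, included Nrbp2 (0.71 fed, -0.18 fasted, adjusted p of the difference = 0.00287) and Tmtc2 (0.99 fed, -0.74 fasted, adjusted p of the difference = 0.00287), which rose with HFD in fed livers. They also included Nat8 (-2.11 fed, -0.33 fasted, adjusted p of the difference = 0.00287), an N-acetyltransferase, which fell. Nat8 was at 15.6, 27.1, 24.96 and 21.8 CPM in the CD fed and 5.29, 5.603, 5.72 and 4.09 CPM in the HFD fed libraries.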

How the data were processed

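Liver RNA-seq of 16 mice was deposited as 1 table of raw whole-number counts per Ensembl gene (46078 genes, 45143 matched to a symbol). Per the labels and methods, the authors enriched polyadenylated RNA, prepared NEBNext Ultra II libraries, sequenced paired ends, aligned reads as strand-specific with TopHat2 2.0.11 to GRCm38 (annotation from Illumina iGenomes) and obtained gene counts by featureCounts. The annotation release and the strand and pair settings of the counting are not given in the sources used here, so antisense and overlapping genes are uncertain. Counts passing filterByExpr (15075 genes) were normalised with TMM factors (trimmed mean of M-values). All 16 libraries entered 1 edgeR 4.0.16 fit (R 4.3.3), in which each group had its own coefficient and 12 degrees of freedom remained. Counts were tested by quasi-likelihood for HFD fed against CD fed livers and for the difference of the diet effects in fed and fasted mice, with Benjamini-Hochberg adjustment and a threshold of 0.05. Nothing says whether replicates came from separate cages or days, so p-values measure the spread between these livers. Positions are from GENCODE on GRCm38 and promoters from RefSeq (GRCm38.p6). Floors and exact 95% intervals cover counting error only.

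Named genes were the 12 largest rises and 12 largest falls (mean of at least 100 counts, no overlap between diets), up to 6 members of each list with the smallest p and its largest change that did not pass, 8 splicing regulators and 5 genes of each sign for the difference, of which those with a described role are printed. Some genes are not reported here. Groups, members and lists were chosen with earlier results of these data known. Alternatives were DESeq2 1.42.0, limma-voom (limma 3.58.1), other scalings and filters, the 8 fed libraries alone, a replicate block and leaving out each library. The fit was tested on simulated data.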

Additional observations from a re-analysis of the deposited data

Results flagged for a closer look

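The diet effect in fed livers differed from that in fasted livers, by the edgeR contrast of the 2 effects at an adjusted p under 0.05, for 48 of the 139 genes printed, against 2.59% of all genes tested. The printed genes were chosen in part for this difference or for the fed effect that enters it, so this share is a description. The values that follow are the log2 diet effect in fed minus that in fasted mice (4 livers per group). It was negative for the fatty acid synthesis enzymes Acly (-1.49), Acss2 (-1.99), Fasn (-1.97) and Acaca (-0.99), for the lipogenic genes Pnpla3 (-3.803), Rdh11 (-1.71), Insig1 (-1.51), Thrsp (-4.59) and Pklr (-1.65) and for the cholesterol enzymes Fdps (-3.47), Mvd (-2.75), Pmvk (-1.68), Lss (-1.62), Dhcr7 (-1.43), Sc5d (-1.38) and Acat2 (-1.12). It was positive for the mitochondrial genes Eci2 (0.83), Decr1 (0.76), Acadl (0.75) and Hadhb (0.696), the thioesterases Acot3 (3.07), Acot2 (2.09) and Acot1 (2.58), the omega-hydroxylases Cyp4a14 (4.06), Cyp4a31 (3.31) and Cyp4a10 (2.61), the droplet genes Plin5 (1.503), Pnpla2 (1.39) and Hsd17b11 (1.04), and Gpat3 (2.59) and Slc27a2 (0.66). It was negative for Fabp5 (-3.49) and Pltp (-1.64). Outside lipid metabolism it was negative for Chrna4 (-6.12), Cyp2c55 (-3.15), Nat8 (-1.78), G6pdx (-1.56), Orm1 (-1.47), Gstm2 (-1.401) and Aldh1l1 (-0.91) and positive for Pknox2 (2.15), Tmtc2 (1.73), Tdo2 (0.94), Nrbp2 (0.896), Abcb4 (0.82), Idh3a (0.75), Srsf5 (0.61) and Adra2a (5.91). Chrna4 averaged 0.0398 and 0.0869 CPM in CD and HFD fasted livers and Adra2a 0.0366 CPM in CD fed livers, at or near the floor, so the sizes of these 2 differences are not reliable.

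A single library lay far from the other 3 of its group by Dixon's test on log2(CPM + 0.1) in 18 of 278 gene and group pairs, where chance alone gives about 1 in 20. HFD fed 4 was the library in 6 of them, high for Gpnmb (16.71 CPM), Krt19 (10.45 CPM) and Pnpla5 (0.03951 CPM, below the floor) and low for Ces2a (77.72 CPM), Hyou1 (78.98 CPM) and Acat2 (33.66 CPM). For Pnpla5 the other HFD fed libraries all had 0 counts, which fixed the outcome of the test, so nothing is drawn from it. HFD fed 2 was high for Dhcr7 (55.2 CPM) and Mvd (9.762 CPM) and low for Cyp39a1 (41.19 CPM). HFD fed 3 was low for Rbfox2 (31.43 CPM). Among CD livers, CD fed 4 was low for Pnpla3 (6.61 CPM) and Nr0b2 (28.83 CPM) and high for Slc27a2 (1535 CPM). CD fed 2 was high for G6pdx (15.17 CPM) and Snrpc (17.01 CPM), CD fed 1 was low for Pygl (585.0 CPM) and Idh3a (22.64 CPM), and CD fed 3 was high for Ugt2b35 (203.2 CPM). What sets these libraries apart was not tested.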

How the results depend on the processing

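The number of genes with a diet effect in fed livers (1131) was within 1.5 times under limma-voom, the other scalings and filters, the 8 fed libraries alone and the replicate block, and rose to 1768 with DESeq2. It was 338 at an adjusted p under 0.01, 321 with an absolute log2 change of at least 1 and 514 to 897 when 1 fed library was left out. Leaving out CD fed 1 and HFD fed 4 together, a choice made after seeing the data, gave 588. The number of genes whose diet effect differed between fed and fasted mice (390) was 1079 with DESeq2, 31 at an adjusted p under 0.01, 166 with an absolute log2 change of at least 1 and 147 to 461 when 1 library was left out, and it dropped by over 1.5 times on leaving out CD fed 1 (246), CD fed 2 (147), HFD fed 1 (241), HFD fed 2 (241), HFD fed 3 (168), CD fast 2 (233), HFD fast 3 (162) or HFD fast 4 (239).

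No printed gene that passed changed direction in any of these fits. Direction turned in genes that did not pass. Without 1 library, Gpnmb ranged from -0.07832 (without HFD fed 4) to 5.456, Timp1 from -0.0481 (without HFD fed 4) to 2.308, Krt19 from -0.3219 (without HFD fed 4) to 2.624, Marco from -1.554 to 0.5838 (without CD fed 1) and Hnrnpm from -0.06237 to 0.003474. Without CD fed 1 and HFD fed 4 together Timp1 was at -0.01771, Krt19 at -0.5338 and Hnrnpm at 0.003954, and with scaling to total counts Pcbp2 was at 0.03566 and Hnrnpm at 0.04827. The cause was not tested.

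Nothing in the labels links same-numbered livers of the 2 diets beyond the number. The correlations of their deviations were -0.177, -0.00469, 0.206 and -0.185. With 4 livers per diet these values cannot tell whether livers shared a cage or a day. With the replicate block 1207 genes had a diet effect and 359 a difference between feeding states, and Cyp4a31, Slc27a2 and Ugt2b35 were the printed genes that no longer passed. With 4 livers per diet an exact test of a single value cannot go below 0.02857, and genes under the floor in a diet give no reliable fold change.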

Other observations

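Some genes with few counts in CD fed livers also passed as higher in HFD fed livers, among them Ucp3 and Adra2a. Ucp3, an uncoupling protein best known from muscle, was counted 0, 0, 5 and 2 times in CD fed and 23, 12, 19 and 14 times in HFD fed libraries, a ratio of CD over HFD of 0.0880 after scaling by the same scaled library sizes as the CPM (95% interval 0.0341 to 0.191, exact, counting error only). Adra2a, an adrenergic receptor, was counted 6, 1, 1 and 0 times in CD fed and 13, 9, 58 and 56 times in HFD fed libraries. HFD fed 3 and HFD fed 4 held most of its counts. By edgeR, Ucp3 had an adjusted p of 0.0336 and no longer passed without CD fed 1, CD fed 2, CD fed 4, HFD fed 1 or HFD fed 3, each left out on its own (adjusted p up to 0.0977). Adra2a had an adjusted p of 0.0207 and no longer passed without CD fed 2, CD fed 3, CD fed 4 or HFD fed 3 (adjusted p up to 0.0684). Both genes were singled out after their values were seen.

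By annotated class, 7.77% of 13315 protein-coding genes, 7.41% of 351 antisense genes and 6.58% of 304 lincRNA genes passed the test for a diet effect in fed livers. The deviations of CD fed 1 and HFD fed 4 from their own group means correlated at 0.386 across genes, the highest of the 16 pairs of a CD with an HFD liver, although these livers share neither a diet nor a number. Genes are not independent replicates, and this value carries no test.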
